A study of Drosophila sechellia with 6 samples.

Results

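The genes described here are the protein-coding genes of *Drosophila sechellia* that carry a name of their own in the deposited table, outside the families of cecropins, Turandot stress proteins, thioester-containing proteins, chemosensory proteins, yolk and vitelline membrane proteins, digestive sugar enzymes and histones. The immune factor *Rel* and the patterning genes *ftz*, *kni*, *hb*, *sog*, *en*, *hh* and *Sry-alpha* are also left out. The members were taken by a rule on names that uses no measured value, and number 187 of the 17275 entries of the table. Most other entries (16091) carry only a GM number, the serial label of a *D. sechellia* gene model. The 187 entries hold 185 different names, because *Adk2-2* and *Mocs2* each stand for a pair of entries. RNA was prepared by poly(A) selection from whole flies for 6 libraries, 3 of flies kept on control food and 3 of flies kept on food with octanoic acid (OA), the fatty acid that makes ripe *Morinda* fruit toxic, and each library was made from 10 adult females of the strain 14021-0428.25. Flies were reared at 20 °C in a cycle of 16 hr light and 8 hr dark, and the exposure lasted 24 hr at 0.7% OA. Age at collection was 0 to 3 d by the treatment protocol, and 1 to 4 d by the sample labels. The comparison asks which genes respond to the toxin of the host fruit in this resistant species.

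The named genes have functions that are known mainly from *D. melanogaster*. They span the sex determination cascade, in which a splicing factor present in females directs the splicing of *tra*, and the maternal mRNAs that an ovary loads into the egg before the embryo transcribes its own genome. They also include metal-binding and redox proteins, the translation machinery, and pairs of duplicated genes of which 1 copy serves most tissues while the other is used in the male germline.

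Expression is given in FPKM, a count of sequenced fragments scaled to transcript length and to the size of the library, with 1 value per group that the authors computed over its 3 libraries. No value per library was used here, so no spread between replicates, no SD and no test accompanies any difference below, and whether a difference exceeds the replicate error is not known. Depth behind each value is also unknown. A change is the log2 of (OA FPKM + 1)/(control FPKM + 1), in which the added 1 shrinks the change of weakly expressed genes, and a gene is said to have risen or fallen only where this reached 2-fold. Every fold bound below is on this scale. Of the 187 entries, 149 had enough alignments for the authors' program to test them and are called measured here, which is 79.7%, against 69.3% of the GM entries. The lowest group value of a measured member was 1.08 FPKM and the highest of an unmeasured one was 1.57 FPKM. No fold is given for genes listed at 0, because a 0 in this table can also stand for a failed estimate.

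Among the 149 measured members, 1 (0.671%) rose by at least 2-fold in OA and 0 fell by that much. Over all measured entries of the table, 2.22% rose and 4.04% fell by at least 2-fold, and over the measured protein-coding entries 2.11% rose and 2.04% fell. The member that rose was *tra*. The next largest differences were those of *Spc25* and *Tret1-2*, both lower in OA by more than 1.5-fold, and the other 146 members lay within 1.5-fold of control. That is 98.0% of the measured members, against 89.2% of the measured GM entries. Members were also better expressed, with a control median of 45.7 FPKM against 27.5 FPKM for the GM entries. Among the 8552 GM entries with a mean of at least 10 FPKM, 93.0% lay within 1.5-fold, 0.9% rose and 1.1% fell by at least 2-fold. Of the 126 measured members with such a mean, 98.4% lay within 1.5-fold. The median change of the measured members was 0.03, with quartiles at -0.10 and 0.21, and that of all measured entries was 0.05. Centring on all measured entries turned the members' median to -0.02.

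**Figure D1:**
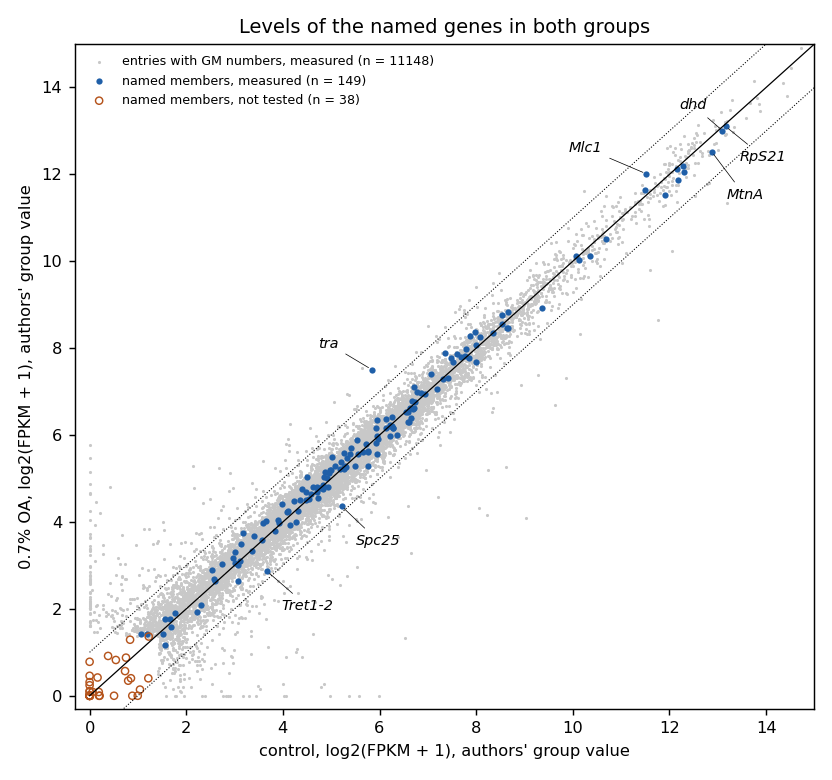
Level of each gene as log2(FPKM + 1) in control (horizontal axis) and in 0.7% OA (vertical axis), 1 point per entry, with measured GM entries in grey, the 149 measured members in blue and the 38 unmeasured members as open circles. The solid line marks equal levels and the dotted lines 2-fold, and *tra* is the blue point beyond a dotted line.

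Sex determination is the role in which the risen gene stands. *Sxl*, the female splicing factor at the head of the cascade, was at 73.1 FPKM in control and at 74.7 FPKM with OA. *tra*, whose female splice form yields the protein that directs female development, rose from 56.1 to 181 FPKM, a ratio of 3.22 and a log2 change of 1.67. These values are for the *tra* entry as listed and do not tell its splice forms apart. *fru*, a target of the cascade that shapes male courtship, was at 5.69 and 7.24 FPKM. *Sxl* and *fru* thus showed log2 changes of 0.03 and 0.30, far under that of *tra*. The log2 change of *tra* lay between 1.62 and 1.82 under every scaling and pseudocount tried. At its level these settings can move the change only a little by construction. They do not address replicate error or the length of the entry.

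The *tra* entry (FBgn0064372) lies on scaffold 0 of the assembly from 8674907 to 8675090. Its span of 184 bases is the shortest of all 149 measured members, whose median span is 2197 bases, and no other entry overlaps it. Short entries varied more than others in the table. Of 463 measured protein-coding entries that span under 300 bases, 12.7% rose and 11.7% fell by at least 2-fold, and with a mean of at least 10 FPKM these shares were 10.8% and 9.3% of 398 entries. The part of the short span in the *tra* value was not tested. The other measured members under 300 bases were *MtnB*, *MtnC*, *MtnD*, the shorter *Mocs2* entry and *Dhc-Yh3*. Their log2 changes lay between -0.38 and 0.52. Without the 6 short measured entries, 0 of 143 measured members reached 2-fold in either direction. That follows by construction, because the cut, added after the data were seen, removes *tra*, the only member past 2-fold.

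**Figure D2:**
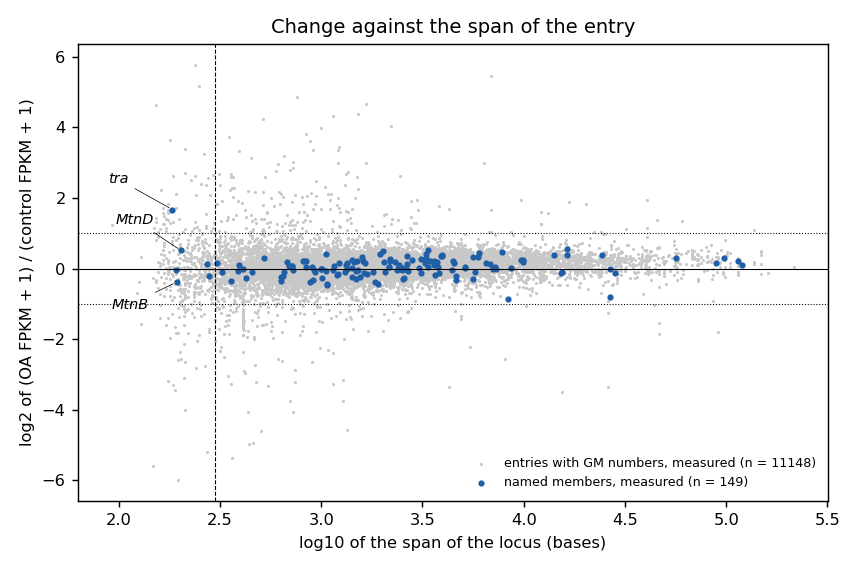
Log2 change (vertical axis) against the span of the entry's locus, as log10 of its length in bases (horizontal axis), with measured GM entries in grey and measured members in blue. The dashed line marks 300 bases and the dotted lines 2-fold, and *tra*, with a span of 184 bases, is the member at the far left above the upper dotted line.

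*Spc25*, a subunit of the Ndc80 complex that ties kinetochores to spindle microtubules, went from 36.1 to 19.6 FPKM, a log2 change of -0.85. *Tret1-2* went from 11.7 to 6.28 FPKM, a log2 change of -0.81. Both stand in loci that the table shares with other entries, 2 GM entries for *Spc25*, and *Tret1-1* and 3 further entries for *Tret1-2*. *Tret1-1*, the neighbouring copy, was at 73.1 and 72.8 FPKM. Reads of overlapping genes and of near-identical copies can be divided between entries, so the value of each single gene there is uncertain. Loci shared with another entry were listed for 24 of the 187 members, 18 of them measured, and without them the counts of 1 and 0 members past 2-fold were the same.

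The 10 most abundant members were the ribosomal protein genes *RpS21*, *RpS18*, *RpS3A* and *sta*, the metallothioneins *MtnA*, *MtnB* and *MtnC*, the oocyte thioredoxin *dhd*, the muscle gene *Mlc1* and *Adh*. These 10 made up 77.4% of the summed FPKM of all members in control and 76.0% in OA. *RpS21* led with 9159 FPKM in control and 8799 FPKM with OA. *RpS18* was at 5000.5 and 4644 FPKM, *RpS3A* at 4632 and 3723 FPKM and *sta*, the ribosomal protein gene *stubarista*, at 5075 and 4254 FPKM. All 4 small-subunit genes were listed lower in OA, with log2 changes from -0.32 to -0.06, but *RpS21* and *RpS18* turned positive once the columns were scaled to equal total FPKM. That rescaling adds 0.15 to the change of well-expressed genes and less to that of weak ones, and it moved the median of all measured entries from 0.05 to 0.19. Entries of structural RNA, which are part of that total, held 13.0% of it in control and 4.75% of it with OA.

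Metallothioneins are small cysteine-rich proteins that bind copper, zinc and cadmium. *MtnA* was at 7498 FPKM in control and 5878 FPKM with OA, *MtnB* at 3859 and 2961 FPKM and *MtnC* at 4590 and 4432 FPKM. *MtnD*, the least abundant of the family, was at 163 and 234 FPKM. The copies did not share a direction, with log2 changes of -0.35, -0.38, -0.05 and 0.52 in that order, and that of *MtnC* turned positive with equal total FPKM. None reached 2-fold.

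Genes of the oocyte and early embryo spanned a wide range of levels where measured, from 9.54 FPKM in control for *asun* to 8751 FPKM for *dhd*. *dhd*, a thioredoxin of the female germline, was at 8751 and 8238 FPKM. *nos*, the posterior determinant of the embryo, was at 256 and 204 FPKM, and *bcd*, the anterior determinant, at 14.1 and 14.8 FPKM. *smg*, which represses *nos* mRNA and clears maternal transcripts, was at 252 and 331 FPKM. *plu*, a regulator of the first embryonic S phases, was at 81.4 and 63.3 FPKM. The piRNA factors *spn-E* and *mael* were at 15.9 and 17.6 FPKM and at 45.7 and 46.4 FPKM. Log2 changes in this group ran from -0.36 for *plu* to 0.39 for *smg* over 9 measured genes. *nullo*, which acts when the zygotic genome takes over, went from 0.845 FPKM to a listed 0 and was not measured. Of the 8 female markers listed for this check, the file names 2. The yolk protein gene *Yp2* was at 11392 and 15455 FPKM and the eggshell gene *Vm32E* at 984 and 718 FPKM, so the label of adult females is borne out in both groups.

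Genes of the male reproductive tract and germline were listed near 0 in both groups, with named exceptions. Of 25 members known in *D. melanogaster* for such a role, 22 were not measured, and these summed to 3.55 FPKM in control and 3.30 FPKM with OA. Among them, 12 were listed at 0 in both groups, and a listed 0 can also stand for a failed estimate. Over all 187 members, 38 were not measured and 14 were listed at 0 in both groups. Over the 16091 GM entries these counts were 4943 and 2153. The highest of the 22 was *r-cup*, at 1.34 and 1.57 FPKM. The 25 were sorted from names after values were seen, and *janA* is not among them. Of the 11 male markers listed for this check the file names 8, none of them measured, with a sum of 0.854 FPKM in control and 1.48 FPKM with OA. A second list for male tissue held 20 genes, of which the file names 10. Only *janA* of these, which is expressed in both sexes, was measured. It was at 177 and 218 FPKM and brought the sum of that list to 178 FPKM in control and 219 FPKM with OA. Seminal fluid proteins of the accessory gland were listed at 0 in both groups for 5 of 7 genes. *Acp36DE* was at 0.0442 and 0.0627 FPKM, and *Acp62F* went from a listed 0 to 0.375 FPKM. *Anp*, an antimicrobial peptide of the male ejaculatory duct, the spermatid gene *soti*, the paternal-effect gene *ms(3)K81* and the Y-linked dynein gene *kl-2* were listed at 0 in both groups.

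The 3 measured genes of this class were *tef*, *Ntf-2r* and *Dhc-Yh3*. *tef*, required for the pairing of autosomes in male meiosis, was at 35.3 and 36.1 FPKM, in a locus shared with 1 GM entry. *Ntf-2r*, a retroposed copy of a nuclear transport gene, was at 25.0 and 26.9 FPKM. *Dhc-Yh3*, which carries the name of a dynein heavy chain of the Y chromosome in *D. melanogaster*, was at 405 FPKM in control and 350 FPKM with OA. This entry (FBgn0029259) spans 279 bases, from 10959941 to 10960219 of scaffold 1, and its level contrasts with the listed 0 of *kl-2*. It was singled out after its values were seen, and whether it is the gene its name implies was not tested.

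In several pairs of related genes, chosen after their values were seen, the copies differed by far more from each other than between foods. *dhd* and *TrxT* lie 973 bases apart on scaffold 4 and encode thioredoxins of the female and the male germline. *TrxT* was at 1.06 and 0.103 FPKM, against 8751 and 8238 FPKM for *dhd*. *janA*, *janB* and *ocn* form a tandem family on the same scaffold, in which *janA* is expressed in both sexes and the others in testis. *janA* was at 177 and 218 FPKM, *janB* at 0.810 and 0.322 FPKM, and *ocn* went from a listed 0 to 0.719 FPKM. The esterase *Est-6* was at 53.4 and 48.0 FPKM and its tandem copy *Est-P*, 198 bases away, at 0.303 and 0.887 FPKM. Among translation factors, *eIF3-S4-1* and *eIF3-S5-1* were at 219 and 372 FPKM in control, while the copies *eIF3-S4-2* and *eIF3-S5-2* were at 0.145 FPKM and at a listed 0. The copies *Pros28.1A* and *Pros28.1B* of a proteasome subunit reached at most 0.0673 FPKM. In the HP1 family of heterochromatin proteins, *HP1A*, *HP1B* and *HP1C* were at 230, 75.6 and 29.3 FPKM in control and at 218, 73.2 and 31.0 FPKM with OA. *HP1E* and *HP1Lcsd* were listed at 0 in both groups, and *Umbrea* went from 0.420 FPKM to a listed 0. The low values of the second copies are too near 0 for a difference between foods to be read from them.

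**Figure D3:**
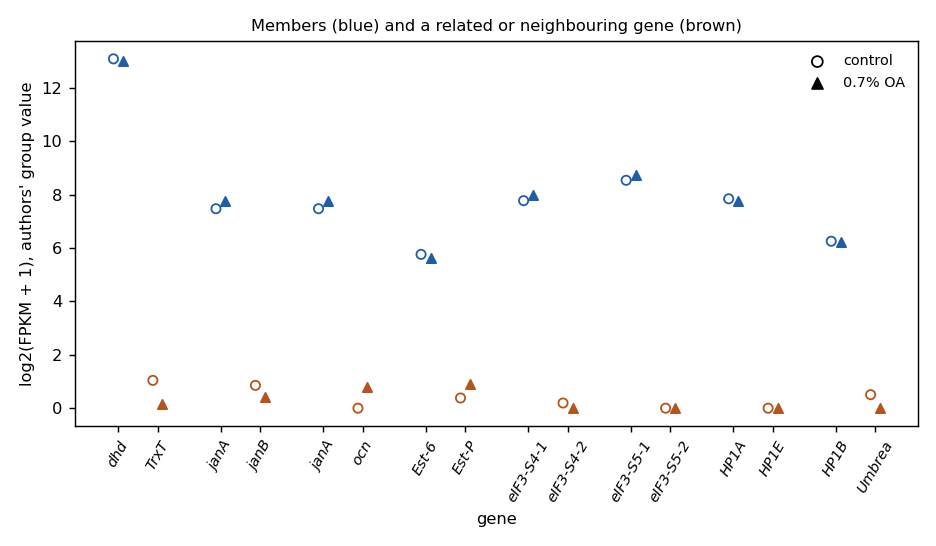
Level of 8 pairs of related or neighbouring genes as log2(FPKM + 1), with open circles for control and triangles for 0.7% OA, the better expressed member in blue and the other in brown (*janA* stands in both of its pairs). Every brown gene drawn lies at or under 1.06 FPKM in both groups, and every blue gene drawn lies at or above 48.0 FPKM. The pairs *Adh* and *Adhr*, *Tret1-1* and *Tret1-2*, and *kay* and *fig* were also compared but are not drawn. Of their lower members, *Adhr* at 1.32 FPKM in control and *Tret1-2* at 11.7 and 6.28 FPKM lie above the bound for brown genes.

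The initiation factor eIF3, which recruits the small ribosomal subunit to mRNA, is represented by 8 measured subunits. Their log2 changes ran from -0.16 to 0.41 with a median of 0.19, and 7 of 8 were above 0, or 6 of 8 after centring on all measured entries. Of all 11753 measured entries, 6718 were above 0 before centring, and centring splits them evenly by construction. *eIF-3p66* was at 233 and 310 FPKM, *eIF-3p40* at 368 and 375 FPKM, and *Trip1* at 397 and 355 FPKM. *Tango7* was at 404 and 453 FPKM, *eIF3-S8* at 193 and 231 FPKM and *eIF3-S9* at 270 and 305 FPKM. By the file's values no subunit reached 1.5-fold.

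Redox and detoxification enzymes showed small differences. *Sod*, the cytosolic superoxide dismutase, was at 1657 and 1464 FPKM, *Cat*, which breaks down hydrogen peroxide, at 323 and 326 FPKM, and *Trx-2* at 1120 and 1040 FPKM. *GstD1*, a glutathione transferase known for detoxification of insecticides, was at 1306 and 1109 FPKM. The juvenile hormone epoxide hydrolases *Jheh1* and *Jheh3* were at 45.6 and 57.9 FPKM and at 73.4 and 62.1 FPKM, so that the former was higher and the latter lower in OA, though *Jheh3* by a log2 change of only -0.24. Of the 7 measured genes of this group, 0 reached 1.5-fold, and the group median of -0.15 moved to -0.01 with equal total FPKM.

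Among metabolic genes, *Adh*, alcohol dehydrogenase, was the most abundant at 2865 and 3180 FPKM, while *Adhr*, listed in the same locus, was at 1.32 and 0.321 FPKM. *Zw*, the first enzyme of the pentose phosphate pathway, was at 94.8 and 91.9 FPKM, and *SREBP*, the transcription factor of lipid synthesis, at 76.9 and 70.9 FPKM. *nvd*, which acts on cholesterol at the start of ecdysone synthesis, was at 53.2 and 48.6 FPKM. *Dat*, an N-acetyltransferase of dopamine and other amines, was at 99.7 and 83.5 FPKM. OA is itself a fatty acid, and 2 fatty acid desaturases of cuticular hydrocarbon synthesis are among the members. *DesatF*, which introduces the second double bond of female dienes, was at 652 FPKM in control and 482 FPKM with OA, a log2 change of -0.44. *Desat2* was at 122 FPKM in both groups.

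Heat shock genes did not move together. *Hsp83*, the fly Hsp90, was at 1068 and 1109 FPKM and its partner *Cdc37* at 60.3 and 70.6 FPKM. *DnaJ-1*, an Hsp40 co-chaperone, was at 104 and 137 FPKM, and *Hsp68*, an inducible member of the Hsp70 family, at 7.42 and 5.25 FPKM. *Manf*, a secreted protein of the endoplasmic reticulum stress response, was at 157 and 155 FPKM. *Victoria*, a relative of the Turandot stress genes, went from 0.994 FPKM to a listed 0 and was not measured, in a locus that the file shares with *TotF* and 2 GM entries. The changes of the 6 measured genes ran from -0.43 to 0.41.

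The other members among the largest differences came from several roles. *Mlc1*, the alkali light chain of muscle myosin, was at 2936 and 4131 FPKM, a log2 change of 0.49, and *LanB2*, a laminin chain of basement membranes, at 14.8 and 20.3 FPKM. *chico*, the insulin receptor substrate, was at 21.6 and 31.6 FPKM, a log2 change of 0.53. *sm*, an hnRNP L-like RNA-binding protein, was at 8.09 and 12.5 FPKM, a log2 change of 0.57. *Eaf*, a partner of the elongation factor ELL, was at 31.5 and 44.0 FPKM, in a locus shared with 2 GM entries. *cav*, which encodes the telomere-capping protein HOAP, was at 53.0 and 38.1 FPKM, a log2 change of -0.46. Each of these kept its sign under both scalings. None reached 1.5-fold with the values as deposited and the pseudocount of 1, but *sm*, *chico*, *Mlc1* and *Eaf* passed it with equal total FPKM, with log2 changes of 0.71, 0.67, 0.64 and 0.61, and *sm* also passed it with smaller pseudocounts, with 0.59 and 0.62.

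Chromatin genes ranged from *HP1A* at 230 FPKM in control down to genes listed at 0, while the developmental transcription factors reached at most 81.8 FPKM, the OA value of the Fos gene *kay*. The histone deacetylase *Rpd3* was at 105 and 107 FPKM, the topoisomerase *Top2* at 75.6 and 84.8 FPKM, and *cid*, the centromeric histone, at 30.2 and 34.2 FPKM. *Hmr*, a gene of hybrid male lethality, was at 5.08 and 5.24 FPKM, and *OdsH*, a homeobox gene of hybrid male sterility, was not measured. Over 18 measured chromatin genes the changes ran from -0.46 to 0.32. The homeotic genes *Ubx* and *Abd-B* were at 9.21 and 9.07 FPKM and at 1.94 and 2.41 FPKM, and the eye selector *ey* at 1.86 and 1.67 FPKM. The mesoderm genes *tin* and *bap* and the tracheal gene *trh* stayed under 1 FPKM. Among cell division genes, *mus209*, which encodes the replication clamp PCNA, was at 218 and 223 FPKM, and *SAK*, the kinase of centriole duplication, at 14.0 and 15.5 FPKM.

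Signalling, neural and pigment genes completed the set. *Ras85D* was at 109 and 127 FPKM, and *Kibra*, of the Hippo pathway, at 11.0 and 14.9 FPKM. Of 10 signalling genes, 8 had log2 changes above 0, or 6 after centring, beside 6718 of all 11753 measured entries before centring and an even split after it. The clock gene *per* was at 6.82 and 8.05 FPKM, the neuropeptide gene *Dsk* at 18.3 and 15.1 FPKM, and *Eh*, eclosion hormone, was listed at 0 in both groups. The pheromone-sensing cofactor *Snmp1* was at 4.95 and 5.42 FPKM. Of the pigment genes, *y* was at 11.5 and 15.2 FPKM, *w* at 23.7 and 27.0 FPKM and *v* at 96.4 and 78.2 FPKM. The genes *mkg-p* and *mkg-r*, grouped here by name, were at 27.8 and 31.6 FPKM and at 2.21 and 2.01 FPKM. The 4 glycosyltransferases, among them *oxt*, which starts glycosaminoglycan chains, had changes from -0.38 to 0.27. The 11 genes of RNA processing and elongation, with *Cbp20* and *Cbp80* of the nuclear cap-binding complex at 51.4 and 54.2 FPKM and at 37.5 and 37.6 FPKM, ran from -0.07 to 0.57. The 10 genes of DNA replication, repair and cell division ran from -0.85 to 0.30, the 15 measured metabolic genes from -0.81 to 0.24, and the 10 measured clock, neural and sensory genes from -0.37 to 0.37. The 14 members placed in no role, 11 of them measured, ran from -0.17 to 0.40.

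**Figure D4:**
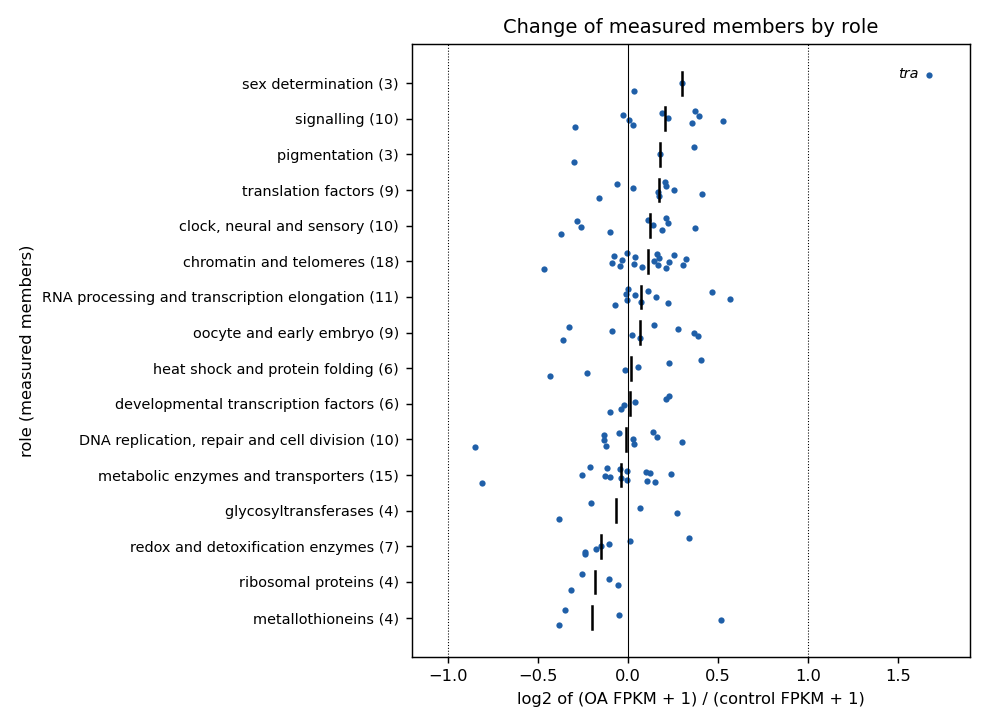
Log2 change of each measured member (points) by role, for roles with at least 3 measured members, with the number measured in brackets and black bars for role medians. Dotted lines mark 2-fold, and *tra* is the point beyond them.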

How the data were processed

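Single-end reads from 6 poly(A) libraries were checked by the authors with FastQC, mapped to the *D. sechellia* genome of Ensembl (Bowtie2), and quantified by Cuffdiff with gene models of release 34, where libraries were scaled geometrically and values corrected for length and sequence bias. Tool versions are not given in the sources used here. The FPKM values the authors deposited combine the 3 libraries of a group. The table's columns of fold changes, test statistics, p-values and q-values hold the authors' own comparison and were not used.

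Members were selected by name, and the members and lists were chosen with earlier results of these data known. Roles were assigned from names after values were seen. The rule fixed for named genes took members past 2-fold, the 10 largest changes, the 10 highest levels, members at 0 in 1 group and at least 1 FPKM in the other (none) and members of listed groups, and others were added to fill out their role. Of the fixed lists with measured members, the one for sex determination held the only member past 2-fold. Those for chorion, opsins, proneural and housekeeping genes matched no name in the file, and the one for desaturases matched none under its spelling. The file counts starts from 0, because spans read in this way were whole codons in 66.4% of 5796 short GM entries, against 17.2% for the other reading, and printed positions count from 1. Gene sequences were not used here. Python 3.11.15, NumPy 2.4.6, pandas 2.3.3 and Matplotlib 3.10.9 were used.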

Additional observations from a re-analysis of the deposited data

How the results depend on the processing

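No paired analysis was possible because each group has a single deposited value, and fits without each replicate were not run on that account. The count of 1 member higher by at least 2-fold stayed at 1 under the other pseudocounts (0.1 and 0.5 FPKM), both scalings, the other filters, the 1.5-fold bound and the count of names, and became 0 without entries under 300 bases, a setting added after seeing the data. The count of 0 members lower by at least 2-fold became 2 at 1.5-fold. The median change of 0.03 became 0.17 with equal total FPKM, by the construction of that scaling. Of 19 members taken by the rules of size and level, 4 changed sign under the same total FPKM (*RpS21*, *RpS18*, *dhd* and *MtnC*), and 0 did under centring or another pseudocount.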
